A study of Danio rerio with 6 samples.

Results

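Gene levels were compared between the untreated controls taken at 6 hours post fertilization (hpf) in a study of RNA turnover in early zebrafish embryos. The comparison took control B against the other control, called control 6 hpf here, over every gene row with an FPKM of at least 1 in either of them. FPKM counts fragments per gene, scaled for gene length and sequencing depth. Of 32571 gene rows, 15826 (48.6%) met that rule. Of the 16745 rows below it, 7627 were listed at 0 in both controls. The row nearest the limit on the inside was si:rp71-40n14.1, at 0.203 FPKM in control 6 hpf against 1.001 in control B, and the nearest on the outside was CT868708.1, at 0.999 and 0.685.

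All groups were pools of 40–50 whole embryos of the AB strain from natural matings, and all RNA went into stranded total RNA libraries after removal of ribosomal RNA. Control 6 hpf was the untreated group beside embryos injected with an antisense morpholino to block the microRNA miR-430 (the miR-430 MO group) and embryos injected with CNOT7-DN, labelled a CNOT7 inhibition, both at 6 hpf. Control B was the untreated group paired with embryos injected with α-amanitin, an inhibitor of RNA polymerase II, also taken at 6 hpf. This pairing is called the experiment of control B below. An untreated group at 2 hpf gives the RNA content before most zygotic transcription. The labels do not say whether either control received a mock injection, nor whether the controls shared parents, days or library preparation. The design states triplicates, but the table holds 1 value per gene and group, so no spread between replicates, p-value or test was available for any difference between the controls.

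At the start of development the zebrafish embryo runs on RNA laid down in the egg. The embryo's own genes are then switched on, maternal RNAs are cleared by several routes including miR-430 and the CCR4-NOT deadenylase, and gastrulation begins. At that time the germ layers are being patterned by Nodal, BMP, Wnt, FGF and retinoic acid signals, while an outer enveloping layer and a yolk syncytial layer form around the blastoderm. Many levels therefore move quickly around this stage, either up for zygotic genes or down for maternal ones.

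Most genes stood at nearly the same level in the controls. Of the 15826 genes, 13184 (83.3%) were less than 1.5-fold apart on the log2(FPKM + 1) scale used for all differences below, which understates the change of low genes. On that scale 95% of genes lay between -0.86 and 0.98 for control B over control 6 hpf, the median was -0.04, and the quartiles were -0.30 and 0.24. At the 2-fold limit, 371 genes were higher in control B (2.34% of those considered) and 248 were lower (1.57%), 619 in all (3.91%). The gene just past the limit was rab5aa, at 20.6 and 42.1 FPKM, and the gene just under it was fa2h, at 35.2 and 71.5. At the 4-fold limit 54 genes were higher and 40 lower, and without small structural RNAs these were 14 and 14. Below, paired FPKM values stand in the order control 6 hpf, then control B, and the figure in parentheses after them is the log2 difference, negative where control B was lower.

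Of the 619 genes, 59.9% were higher in control B (exact binomial interval 56.0 to 63.8 at 95%, which covers the counting of genes only). The split moved with the scaling. It was 71.4% after both controls were set to the same summed FPKM, and 67.5% after centring on the median gene. Summed FPKM was lower in control B by 0.11 on the log2 scale, and setting the sums equal moved the median of all genes up by 0.10.

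**Figure D1:**
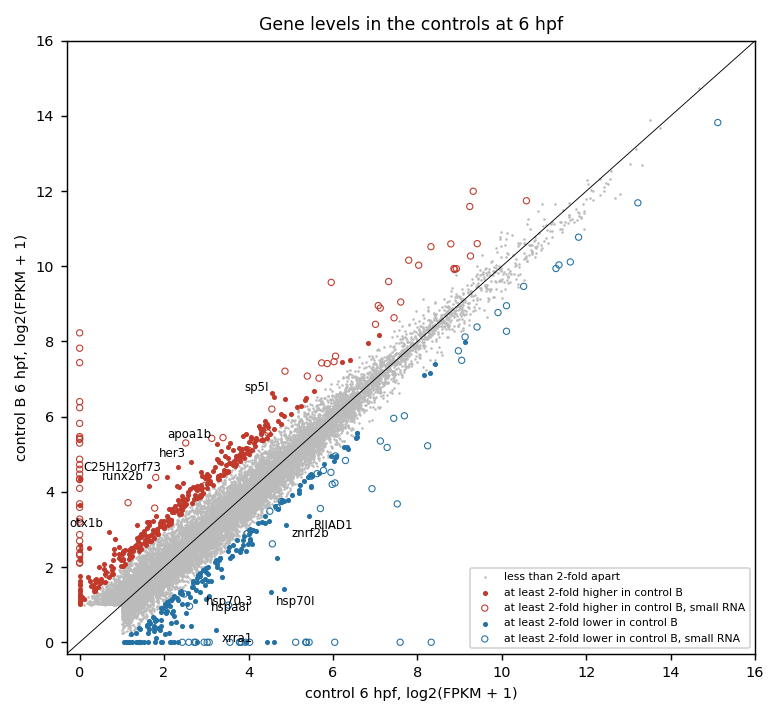
Level of each of the 15826 genes in control 6 hpf (x axis) and control B (y axis), both as log2(FPKM + 1). Each point is a gene; red and blue mark the 371 and 248 genes at least 2-fold higher and lower in control B, open circles mark small structural RNAs, and the line marks equal levels. The points follow the line, and the open circles reach farthest from it.

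The same count was made for the other pairs of groups, each with its own set of genes at FPKM 1 or more. Between miR-430 MO and control 6 hpf, 4.93% of genes were at least 2-fold apart. Between CNOT7-DN and control 6 hpf the share was 2.80%. The untreated controls were thus farther apart by this count than CNOT7-DN embryos were from control 6 hpf. Against control B the shares were 9.46% for miR-430 MO and 11.1% for CNOT7-DN, and between those injected groups the share was 9.26%. Between 2 hpf and control 6 hpf the share was 48.5%, and between amanitin and control B it was 49.2%. These pairs share groups, so the shares are not independent of one another.

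Markers of the gastrula and its outer layers were detected in both controls. All 5 gastrula markers (ntla, chd, gsc, sox32 and tbx16) and all 9 enveloping layer markers were at FPKM 1 or more in each, and the summed level of the gastrula markers was 766 in control 6 hpf against 951 in control B. The enveloping layer markers summed to 4000 and 4212. Of 9 yolk syncytial layer rows, control 6 hpf had 8 at FPKM 1 or more and control B had 9, with sums of 2351 and 2855; the exception was apobb, at 0.906 FPKM in control 6 hpf. Germ cell markers (3 rows) summed to 74.9 and 56.7, and oocyte markers (6 rows) to 158 and 106. None of the 4 adult ovary and blood rows in this marker set reached FPKM 1 in either control. The same held for its 6 later-stage rows, such as those of muscle and neuron genes. Longer lists of these kinds, given below, did hold rows past that level. These were 5 of 27 rows for adult ovary, blood and gut, and 10 of 57 later-stage rows. Among them were cyp11a1 (97.3 and 76.4), cyp17a1 (15.6 and 8.83), tfa (27.8 and 45.6) and tubb5 (26.6 and 23.3). In whole-embryo RNA, fewer cells of a type and less RNA per cell cannot be told apart.

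Genes absent from the egg differed most often. A class was set from the 2 hpf and amanitin groups alone, so that neither control entered its definition directly. The amanitin group came from the experiment of control B, so classes that use it are not independent of differences between the experiments. A row of rxrga counted as absent from the egg, with 0 at 2 hpf and in control 6 hpf. It stood at 19.2 in control B and 15.5 in amanitin. Of the 2259 genes under FPKM 0.5 at 2 hpf, 190 (8.41%) were at least 2-fold higher in control B and 70 (3.10%) lower, with a median difference of 0.31, and 1668 lay above 0. Without small RNAs, 145 (6.96%) of 2082 were higher and 35 (1.68%) lower. Among the 2792 genes at FPKM 0.5 to 5 at 2 hpf, 90 were higher and 46 lower (median 0.11). Maternal genes, at FPKM 5 or more at 2 hpf, had a median of -0.12, and of 10775, 91 (0.845%) were higher and 132 (1.23%) lower. The direction of those maternal counts turned with the scaling, to 126 higher and 92 lower under equal summed FPKM and 107 and 102 after median centring, with medians of -0.02 and -0.07. As deposited and without small RNAs, 72 of 10636 maternal genes were higher and 111 lower.

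The maternal genes were divided by their level in amanitin embryos, where clearance that needs zygotic transcription is blocked. Those embryos belonged to the experiment of control B, so a difference between the experiments would enter both this division and the comparison. Among 1861 maternal genes partly lost in amanitin (between 0.25 and 0.5 of the 2 hpf level kept), 3 were at least 2-fold higher in control B and 29 lower, with a median of -0.18. Among 1741 that lay below 0.25 of that level, 16 were higher and 34 lower (median -0.13). Among 7173 that kept 0.5 or more of it, 72 were higher and 69 lower (median -0.09). The sign of that last median turned under equal summed FPKM (0.0046), while the other classes kept theirs under each scaling tried.

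The larger share of egg-absent genes higher in control B was also seen among genes of like level. Without small RNAs and within a mean FPKM of 5 to 20, 48 of 421 egg-absent genes were higher by 2-fold or more and 6 lower, against 29 and 42 of 4095 maternal genes. At 20 and over the counts were 23 and 7 of 271 egg-absent genes, against 35 and 20 of 4687 maternal genes. Over all genes but the small RNAs, the share at least 2-fold apart was 7.44% at a mean FPKM under 1 and 3.51% at 1 to 2. It was 4.48% at 2 to 5, 3.32% at 5 to 20, 2.14% at 20 to 100 and 0.706% above 100. Genes with a mean under 1 met the FPKM rule through 1 control only.

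**Figure D2:**
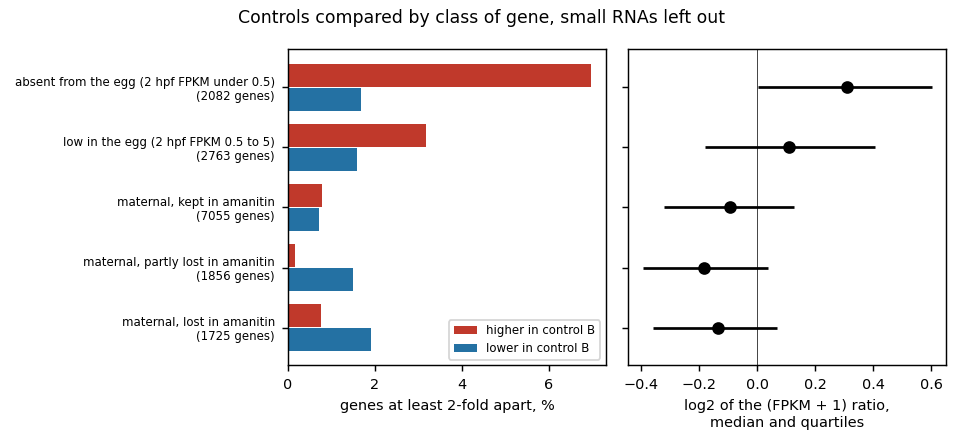
Left, percent of genes at least 2-fold higher (red) or lower (blue) in control B for classes set from the 2 hpf and amanitin groups, small RNAs left out; right, median (point) and quartiles (line) of the log2 (FPKM + 1) ratio of control B over control 6 hpf. Genes absent from the egg have the longest red bar and a median of 0.31, and each maternal class has a median below 0 as deposited. With small RNAs included, the class kept in amanitin is at 0.0046 under equal summed FPKM.

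Genes with a symbol on 1 row and FPKM of at least 5 in a control were ranked, leaving out small RNAs and placeholder names. Of these, the 12 most above control 6 hpf in control B held several regulators of embryonic pattern. The gene with the largest difference was runx2b (ENSDARG00000059233, chromosome 20, 44022920 to 44126740 on Zv9), whose mammalian counterpart drives bone formation. It stood at 2.11 FPKM in control 6 hpf against 16.9 in control B (log2 difference 2.53), and at 1.18 in miR-430 MO and 12.8 in CNOT7-DN. It was thus high in control B and CNOT7-DN and low in the other groups at 6 hpf, amanitin included (2.92). The authors' deposited q-values for runx2b were large, at 0.402 between control 6 hpf and CNOT7-DN and 0.190 between control B and amanitin.

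The homeobox gene otx1b, a factor of the head and anterior neural plate, stood at 0.612 FPKM in control 6 hpf against 6.60 in control B (2.24). It also stood at 6.72 at 2 hpf, and at 0.0283 in miR-430 MO and 0.238 in CNOT7-DN. Control B was thus alone among the transcribing 6 hpf groups in lying near the 2 hpf level. The hairy-family repressor her3 (ENSDARG00000076857, chromosome 8, 48790623 to 48791866), which acts in the neural plate, stood at 5.24 and 26.6 FPKM (2.15), and at 8.92 in miR-430 MO and 2.25 in CNOT7-DN. It was listed at 0 at 2 hpf.

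The Sp-family factor sp5l (ENSDARG00000010124, chromosome 23, 28267501 to 28270357), a target and mediator of Wnt signalling, stood at 23.3 FPKM in control 6 hpf against 91.6 in control B (1.93). It was at 6.22 in miR-430 MO, 5.597 in CNOT7-DN and under 0.04 at 2 hpf and in amanitin, so it was zygotic and highest in control B. The chromatin-associated factor prdm14 stood at 4.46 and 17.9 (1.79), and znf750, a factor of epidermal differentiation in mammals, at 4.102 and 16.4 (1.77). Both were lower in miR-430 MO and CNOT7-DN than in either control.

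Of the remaining 6, apoa1b, an apolipoprotein of the yolk syncytial layer, stood at 8.46 and 38.04 FPKM (2.04). The stress-response factor atf4b2 stood at 9.13 and 32.7 (1.74), with 10.4 in miR-430 MO and 10.2 in CNOT7-DN, so that control B stood apart from 3 groups at nearly 1 level. The ubiquitin gene ubb stood at 1.58 and 7.66 (1.75), and the kinase gene prkcq at 0.781 and 5.75 (1.92). The open reading frames C25H12orf73 and C25H11orf24 stood at 3.21 and 20.2 (2.33) and at 10.8 and 38.7 (1.75).

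In the same ranking, the 12 genes most below control 6 hpf in control B were led by a heat-inducible chaperone. The Hsp70 gene hsp70l (ENSDARG00000055723, chromosome 8, 5006698 to 5009452) stood at 22.1 FPKM in control 6 hpf against 1.52 in control B (-3.20). It was at 1.79 in miR-430 MO and 0.639 in CNOT7-DN, and at 0.325 at 2 hpf and 0.0342 in amanitin, so control 6 hpf was the 1 group of the 6 that stood high. The authors' deposited table gives q-values of 5.89e-04 for hsp70l between control 6 hpf and miR-430 MO and 9.96e-04 between control 6 hpf and CNOT7-DN.

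Some other chaperones were also highest in control 6 hpf, though by a smaller ratio to the other groups. The Hsp70 gene hsp70.3 stood at 6.27 FPKM in control 6 hpf against 1.52 in control B (-1.53), with 0.975 in miR-430 MO and 0.489 in CNOT7-DN, though its locus is shared with a row of a clone-named gene, and reads may be divided between them. The Hsp70-family gene hspa8l stood at 6.90 and 1.24 (-1.82), with 3.65 and 2.04 in the injected groups. In the list of 24 chaperone genes considered, 3 were at least 2-fold lower in control B and none higher, beside 1.57% and 2.34% of all genes. Beside hsp70l and hsp70.3 this was the Hsp90 gene hsp90aa1.2, at 43.4 and 16.8 FPKM (-1.32), with 11.9 in miR-430 MO and 9.69 in CNOT7-DN. The list's median was -0.20, and its most abundant member, hspa8, stood at 3075 and 3299 FPKM. The collagen chaperone gene serpinh1b stood at 16.8 and 27.6 (0.68), so members of the list differed in both directions.

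Maternal genes made up most of the others on the lower side. RIIAD1 was at 138 FPKM at 2 hpf, and at 41.9 in control 6 hpf against 9.27 in control B (-2.06), and at 26.3 in miR-430 MO, 85.1 in CNOT7-DN and 8.94 in amanitin. The gene xrra1 was at 44.2 at 2 hpf, and at 8.42 in control 6 hpf against 0.260 in control B (-2.90), and was listed at 0 in miR-430 MO and at 0.503 in CNOT7-DN. The authors' deposited q-value for xrra1 was large, at 0.226 between control 6 hpf and 2 hpf. Leaving out small RNAs and placeholder names, xrra1 was the only gene with a symbol on 1 row that lay at FPKM 5 or more in one control and under 0.5 in the other.

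The ubiquitin ligase gene znrf2b stood at 28.5 and 7.72 FPKM (-1.76) and at 38.5 in amanitin. The splicing factor gene mbnl1 stood at 6.83 and 1.87 (-1.45), and the glutathione transferase gene gstt1a at 5.12 and 1.28 (-1.42). CAMKMT (2 of 2), b3galtlb and acyp1 differed by -1.52, -1.47 and -1.40, each with FPKM above 20 at 2 hpf. An exception to this maternal group was otpb, a homeobox gene of the developing hypothalamus, at 5.73 and 1.61 (-1.37), with 11.7 in miR-430 MO, 10.2 in CNOT7-DN and 0.133 in amanitin.

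**Figure D3:**
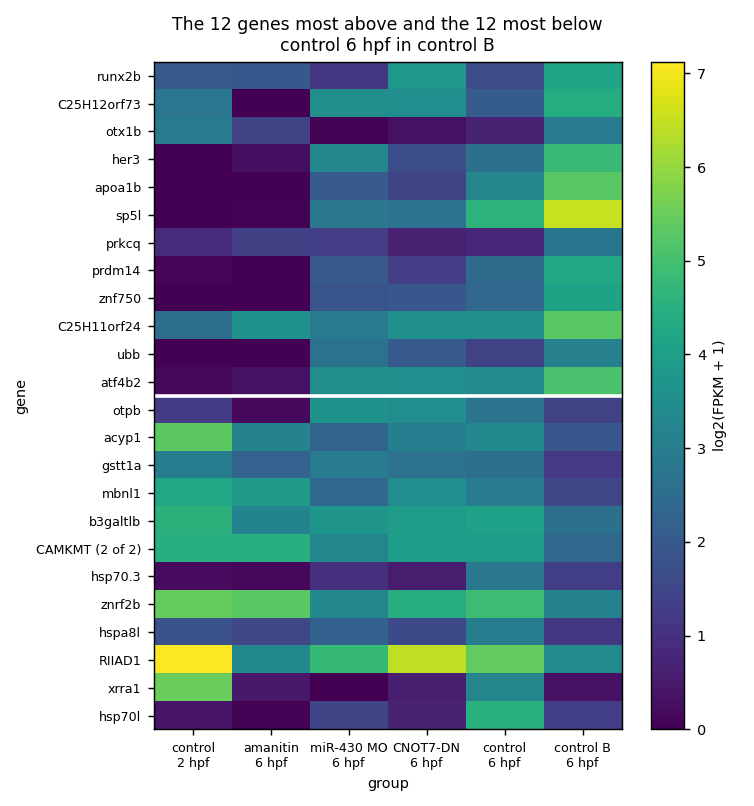
Levels of the 12 genes most above control 6 hpf in control B (upper rows) and the 12 most below it (lower rows) in all 6 groups, coloured by log2(FPKM + 1). The hsp70l row is bright only in control 6 hpf (22.1 FPKM) and the sp5l row is brightest in control B (91.6 FPKM).

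Leaving out small RNAs, placeholder names and symbols on several rows, the 5 differing genes with the highest levels were gmnn, slc16a3, blf, lamp2 and pmaip1, of which all but blf were maternal. The replication inhibitor gene gmnn (geminin) was at 1172 FPKM at 2 hpf, and at 563 in control 6 hpf against 254 in control B (-1.15), and at 311 in miR-430 MO and 1010 in CNOT7-DN. The lactate transporter gene slc16a3 stood at 282 and 137 (-1.03), with 667 at 2 hpf and 841 in amanitin. The zinc finger gene blf, which was zygotic (3.34 at 2 hpf), stood at 340 and 169 (-1.01). On the other side, the lysosomal membrane gene lamp2 stood at 134 and 288 (1.09), and pmaip1, which encodes the apoptosis inducer Noxa, at 113 and 250 (1.14).

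Genes were also grouped in lists by pathway and cell type. Beside each list below stand the 2.34% and 1.57% of all genes that were at least 2-fold higher and lower, and the median of -0.04 over all genes. Over the 2259 genes absent from the egg, these were 8.41% and 3.10%, with a median of 0.31, and 1668 lay above 0. Without small RNAs, over 2082 such genes, they were 6.96% and 1.68%, with a median of 0.31. Of 35 rows for posterior and paraxial mesoderm genes, 25 were considered and 10 were under FPKM 1. Of the 25, 9 were at least 2-fold higher in control B and none was lower, 23 lay above 0, and the median was 0.60.

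The segmentation factors mespaa and mespab stood at 9.93 and 4.45 FPKM in control 6 hpf and at 30.1 and 13.3 in control B (1.51 and 1.39). The presomitic factor msgn1 stood at 15.63 and 41.6 (1.36), with 9.93 in miR-430 MO and 5.86 in CNOT7-DN. The T-box gene tbx6l stood at 1.86 and 6.74 (1.44). The other members past the limit, named after their values were seen, were tbx1, foxc1a, cdx4, ntlb and efnb2b, with differences from 1.05 to 1.28. Of the 9, all but mespaa (3.02) were under FPKM 0.5 at 2 hpf.

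Some members with higher levels lay below the 2-fold limit. Level did not set the list's difference, as its median was 0.74 over the 18 genes at an FPKM minimum of 5. The T-box gene tbx16, which directs mesoderm cell movement, stood at 194 and 254 FPKM (0.39), and the notochord and tail gene ntla (Brachyury) at 189 and 314 (0.73). The segmentation clock genes her1 and her7 stood at 55.4 and 105 (0.91) and at 36.3 and 60.5 (0.72). All of these were higher in control B, and below 2-fold.

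In the list of neural and ectodermal patterning genes, 7 of 27 considered were at least 2-fold higher in control B and 1 was lower, with a median of 0.41, and 21 rows were under FPKM 1. Beside otx1b and her3, these included lhx5, a forebrain homeobox gene, at 6.91 and 20.5 FPKM (1.45), and foxd3, a neural crest and early mesoderm factor, at 10.1 and 25.1 (1.24). The others, otx1a, irx1b and otx2, differed by 1.19 to 1.38. Both otx2 (0.180 and 2.08) and otx1b (0.612 and 6.60) met the FPKM rule through control B only. At an FPKM minimum of 5 the list's median was 0.34 over 22 genes. The 1 lower gene was her5, a repressor of the midbrain–hindbrain boundary that is also expressed in endoderm, at 66.2 and 30.1 (-1.11), with 107 in CNOT7-DN. The pluripotency and neural factor sox2 stood at 25.9 and 46.6 (0.82), and its relative sox3 at 299 and 268 (-0.16). The foxd3 row shares its locus with BX664614.1, which differed by -1.14, and reads may be divided between them.

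Genes of the dorsal organizer were divided. Of 14 considered, 3 were at least 2-fold higher in control B and 1 was lower, with a median of 0.14. The Wnt antagonist gene frzb stood at 4.97 and 14.2 FPKM (1.35), and foxa2, a factor of axial mesoderm and endoderm, at 9.63 and 22.6 (1.15). The other was otx2, at 0.180 and 2.08, which met the FPKM rule through control B only. In contrast dharma, a homeobox gene switched on early on the dorsal side, stood at 12.01 and 4.51 (-1.24), with 10.2 in miR-430 MO and 9.90 in CNOT7-DN. The BMP antagonist gene chd stood at 149 and 130 (-0.20) and gsc at 78.9 and 65.0 (-0.28). The median of this list changed sign at an FPKM minimum of 5.

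Signalling lists held between 0 and 5 genes past the 2-fold limit in either direction. In the Nodal and endoderm list 2 of 22 genes were at least 2-fold higher, foxa2 and the endoderm factor sox17 (2.25 and 6.22 FPKM, 1.15), and the median was 0.04. The Nodal antagonist gene lft2, itself a Nodal target, stood at 82.1 and 50.8 (-0.68). In the BMP and ventral list 2 of 29 were higher, gata2a (5.12 and 15.8, 1.46) and the ectodermal factor tfap2a (17.1 and 40.5, 1.202), with a median of 0.27. The ligand gene bmp4 stood at 38.1 and 40.5 (0.09), and the ventral repressor gene vox at 429 and 321 (-0.42).

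In the Wnt list 5 of 30 genes were at least 2-fold higher and none lower, with a median of 0.21. They were the target sp5l, the nuclear effectors lef1 (8.87 and 26.6 FPKM, 1.49) and tcf7l1a (18.7 and 40.6, 1.08), frzb and the posterior homeobox gene cdx4 (16.4 and 38.3, 1.18). The lef1 level was 23.4 in miR-430 MO and 45.8 in amanitin, so control 6 hpf was the lowest group for this gene. No gene of the FGF list was at least 2-fold apart in 22 considered (median 0.19); the ligand gene fgf8a stood at 49.8 and 56.4 and the feedback inhibitor gene dusp6 at 129 and 144.

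In the retinoic acid and Hox list 12 of 47 rows were considered, of which 3 were higher and 1 lower, with a median of 0.53. The retinoic acid synthesis gene aldh1a2 stood at 15.21 and 31.5 FPKM, just past 2-fold, and dhrs3b, which reduces retinal, at 10.6 and 26.4 (1.24). The remaining one was a row of rxrga, a retinoid receptor, listed at 0 in control 6 hpf, miR-430 MO and CNOT7-DN and at 19.2 in control B and 15.5 in amanitin. That row shares its locus with another, and reads may be divided between them. In the Notch list 2 of 28 were higher, her3 and the receptor gene notch3 (12.01 and 28.5, 1.18), and 1 was lower, her5.

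The medians of both extra-embryonic layers lay above 0 and below the median of 0.31 over genes absent from the egg. None of 33 enveloping layer genes was at least 2-fold apart (median 0.15), with the keratin gene krt4 at 821 and 917 FPKM (0.16). In the yolk syncytial layer list, 4 of 28 were higher and 1 lower (median 0.25). The 4 were lipid carriers: apoa1b, apoa1a (18.6 and 46.7, 1.28), apobb (0.906 and 4.05, 1.41) and fabp1b.1 (7.11 and 17.4, 1.19). The lower one was mxtx2, a homeobox gene that specifies this layer early, at 75.3 and 35.8 (-1.05), with 72.9 in miR-430 MO and 114 in CNOT7-DN. The apobb row shares its locus with HPCAL1, which differed by -1.02, and reads may be divided between them.

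Egg and germ line genes lay lower in control B without passing the 2-fold limit. Of 49 oocyte and egg genes considered, none was 2-fold apart, 44 lay below 0, and the median was -0.33. The meiotic kinase gene wee2 was at 257 FPKM at 2 hpf, and at 88.4 in control 6 hpf against 44.1 in control B (-0.99), with 170 in CNOT7-DN. The antiproliferative gene btg4 stood at 618 at 2 hpf and then at 58.4 and 29.5 (-0.96), and the maternal linker histone gene h1m at 1064 and then at 314 and 182 (-0.78). Of 21 germ plasm and germ cell genes, 18 lay below 0 (median -0.40). All 7 replication-dependent histone rows considered also lay below 0 (median -0.45). Unlike the egg genes, these rows rose after 2 hpf. They summed to 4634 FPKM at 2 hpf, 16307 in control 6 hpf, 12266 in control B and 4864 in amanitin. These 3 list medians kept their sign under every scaling tried. Over all 10775 maternal genes 6911 lay below 0 as deposited, and the median was -0.12. Over all 15826 genes considered 8631 lay below 0.

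For the 29 reported miR-430 targets the median was -0.15, and 1 member was at least 2-fold apart, the chemokine gene cxcl12b, at 4.34 and 10.4 FPKM (1.09) and at 22.1 in miR-430 MO. In the CCR4-NOT and decay list of 55 genes, the scaffold subunit gene cnot1 (34.3 and 75.5, 1.12) and zfp36l1b were higher and lsm14b was lower (93.8 and 46.2, -1.01).

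Stress and damage lists other than the chaperones held few differing genes. In the p53 list 1 of 21 was at least 2-fold apart, pmaip1, and the median was 0.28. The p53 inhibitor gene mdm2 stood at 249 and 449 FPKM (0.85), with 463 in miR-430 MO and 136 in CNOT7-DN. In the hypoxia and glycolysis list hif1ab (26.1 and 55.4, 1.06) was higher and slc16a3 lower of 25. In the list of immediate early genes 1 of 17 was higher, zfp36l1b (1.04 and 3.10), and the AP-1 gene jun stood at 54.6 and 36.3 (-0.57). In the unfolded protein list 1 of 20 was higher, atf4b2. None of 22 oxidative and metal response genes and none of 20 clock and light-regulated genes was 2-fold apart.

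**Figure D4:**
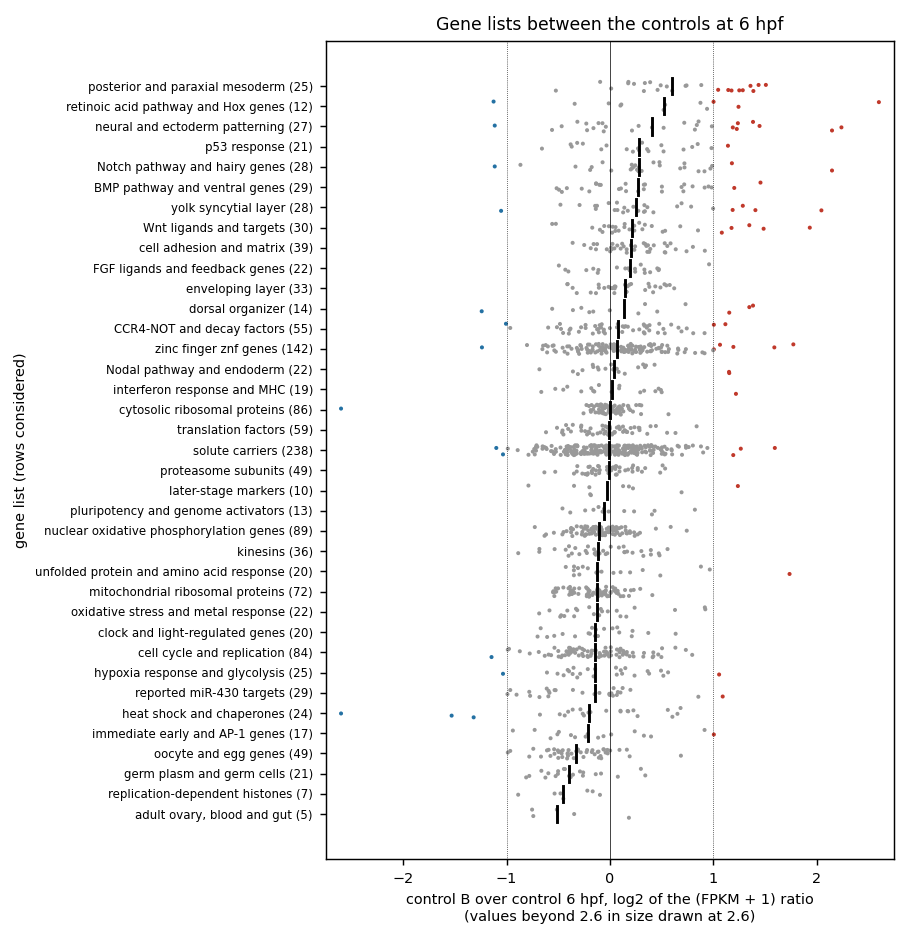
Difference between the controls for each member of the gene lists, as the log2 (FPKM + 1) ratio of control B over control 6 hpf, ordered by list median (black bar). Red and blue points are at least 2-fold higher and lower in control B. The posterior and paraxial mesoderm list has the highest median (0.60), with 9 red points of 25, and the cytosolic ribosomal proteins lie close to 0.

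Housekeeping lists held few differing genes. Of 86 cytosolic ribosomal protein rows 85 were less than 2-fold apart, with a median of -0.0035. The exception was a row of rps20 listed at 23.2 FPKM in control 6 hpf against 0 in control B; a second rps20 row on the same locus stood at 583 and 515. None of 59 translation factors, 49 proteasome subunits, 89 nuclear oxidative phosphorylation genes or 72 mitochondrial ribosomal proteins was 2-fold apart, with medians of -0.0046, -0.0086, -0.10 and -0.13. Of 84 cell cycle genes only gmnn was, while the survivin gene birc5b stood at 38.1 and 18.9 (-0.98) and the origin recognition gene orc6 at 73.5 and 39.7 (-0.87).

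Among 142 zinc finger genes 5 were higher and 1 lower, and among 238 solute carriers 3 were higher and 2 lower. In 13 pluripotency genes there was none; the genome activators nanog and pou5f1 stood at 534 and 388 FPKM (-0.46) and at 755 and 888 (0.23). None of 39 cell adhesion genes (median 0.20) and none of 36 kinesins (median -0.12) was 2-fold apart. One of 19 interferon and MHC genes was higher, b2ml (3.01 and 8.33, 1.22). Of 57 later-stage rows 47 were under FPKM 1 in both controls, and of the 10 others 1 was higher, foxd3, whose locus is shared. Of 27 rows for adult ovary, blood and gut 5 were considered, and none was 2-fold apart.

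Small structural RNAs differed far more often than other genes. Of 345 considered, out of 4000 rows, 66 were at least 2-fold higher and 58 lower, or 35.9% against 3.20% of the other 15481 genes. They are short, and each row rests on a narrow stretch of sequence. The depth behind each value is unknown. Among the 50 rows at FPKM 5 or more in one control and under 0.5 in the other, 42 were small RNAs (23 present in control B and 19 in control 6 hpf), of which 21 were miRNA precursors.

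The families went different ways. The signal recognition particle (SRP) RNA, the RNA core of the particle that targets secreted proteins to the membrane, had 60 rows considered, with 2 higher, 19 lower and a median of -0.63. All but 2 of the rows lay on chromosome 11, where they summed to 82316 FPKM in control 6 hpf against 58057 in control B. The same rows summed to 78956 in miR-430 MO and 74660 in CNOT7-DN, and to 85076 in amanitin and 53118 at 2 hpf, so that control B was the lowest of the 6 hpf groups. These rows carry the same name, and reads may be divided between them, but their sequences were not compared. The 2 rows elsewhere summed to 13869 and 13056.

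Box C/D snoRNAs, guides for ribose methylation of RNA, had 17 rows higher and 9 lower of 81 (median 0.20). They summed to 64978 FPKM in control 6 hpf, 82540 in control B and 3484 in amanitin. The 2 rows of SNORD75 summed to 1243 and 7166, with 2252 in miR-430 MO and 2471.3 in CNOT7-DN. They share their locus with rows of SNORD47, SNORD74 and SNORD79, and reads may be divided between them. Box H/ACA snoRNAs, guides for pseudouridylation, had 11 rows higher and 3 lower of 80 (median 0.20). Spliceosomal and other U RNAs had 13 higher and 5 lower of 29 (median 0.65), and 1 U3 row stood at 1532 and 3427 (1.16). The transcription regulator rn7sk stood at 25980 and 27214 (0.07).

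The row of 5.8S ribosomal RNA stood at 35489 FPKM in control 6 hpf against 14497 in control B (-1.29), and at 22670 in miR-430 MO and 23898 in CNOT7-DN. Ribosomal RNA was removed when the libraries were made, so this row shows what remained of it. Among miRNA precursors 15 rows were higher and 16 lower of 50 (median 0.40). The 1 row of the miR-430 family considered, mir430a-11 (ENSDARG00000087281, chromosome 4, 28008949 to 28009079), stood at 9551 and 3299 (-1.53). It was at 10662 in miR-430 MO, 11676 in CNOT7-DN and 12.2 in amanitin, so control B was the lowest of the transcribing 6 hpf groups. The table measures the long RNA that covers this row, not the mature miRNA.

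**Figure D5:**
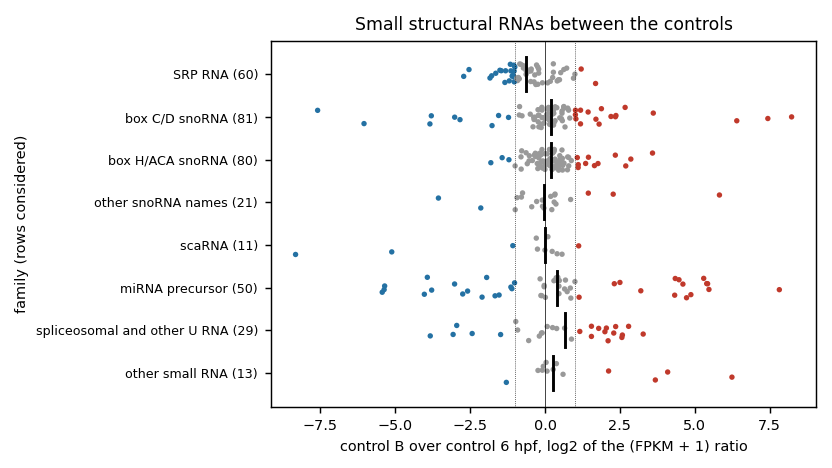
Difference between the controls for small structural RNAs by family, as the log2 (FPKM + 1) ratio of control B over control 6 hpf, with family medians as black bars and points at least 2-fold apart in red (higher in control B) or blue (lower). SRP RNA lies to the left (median -0.63), and points of box C/D snoRNA reach from -7.59 to 8.23.

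By position, differing genes were spread over all chromosomes. Without small RNAs the share at least 2-fold apart was between 2.195% (chromosome 5) and 5.19% (chromosome 9), with a median of 2.91%. Among genes with a locus of their own, put in 3 bins of equal size by the span of the locus, 4.28% of the shortest differed, against 2.298% and 2.32% of the others. Of the 495 differing genes that are not small RNAs, 34 pairs of neighbours within 100 kb differed in the same direction and 6 in opposite directions, and 8 of the former share a locus. Of the 495, 305 were higher and 190 lower, so many pairs would share a direction in any case. No such count was made for other pairs of genes, and pairs of the chromosome 22 run below are included. Without small RNAs, rows that share a locus made up 19.03% of the genes considered and 24.8% of those that differed; with them the shares were 19.8% and 29.7%.

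On chromosome 22 a run of genes with clone names stood lower in control B. Between 25447524 and 26327027, a window chosen after its values were seen, 8 of 26 genes considered were at least 2-fold lower and none higher. Over all genes the shares were 1.57% lower and 2.34% higher. Among maternal genes at a mean FPKM of 1 to 5, 48 of 1827 were lower and 7 higher, small RNAs left out. At 5 to 20 these were 42 and 29 of 4095. Not all of the 8 belong to these classes, as si:dkey-4c23.8 was at 4.39 FPKM at 2 hpf, under the maternal limit. All 8 lower genes were more abundant at 2 hpf than in either control. The most abundant, si:dkeyp-98a7.3, was at 116 FPKM at 2 hpf, and at 17.6 in control 6 hpf against 8.09 in control B, and zgc:171781 at 29.1 at 2 hpf and then at 5.22 and 0.348. Several of these rows share a locus, so their values are not independent.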

How the data were processed

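The deposited table holds group values of FPKM for 32571 Ensembl genes, made by the authors with Cuffdiff 2.1.1 after alignment with TopHat 1.4.0 to Zv9, the build danRer7, per the submitters' processing notes. The authors' deposited q-values cover their own comparisons, none of which sets the controls against each other, and were only quoted. Not given in the sources used here are the scaling between libraries, the annotation release, the depth and whether counting used strand. Control 6 hpf values came from the comparison with 2 hpf, and 80.9% of them were identical in its 3 comparisons. Positions are printed as deposited.

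Differences were computed as log2((FPKM + 1) of control B over (FPKM + 1) of control 6 hpf) for rows at FPKM 1 or more in either control, with Python 3.11.15, numpy 2.4.6, pandas 2.3.3, scipy 1.17.1 (binomial interval) and matplotlib 3.10.9; scripts were checked on simulated data. With 1 value per group no test was run. The members, lists and classes were chosen with earlier results of these data known, and the pattern for small RNA names was corrected after its matches were read.

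Genes named are the 12 largest differences each way among those with a symbol on 1 row, an FPKM of at least 5 in either control, no placeholder name and no small RNA, the 5 most abundant differing genes, genes at 5 or more in one control and under 0.5 in the other, and 4 members of each list; others were named after their values were seen. A maternal gene had an FPKM of at least 5 at 2 hpf. Alternatives were other pseudocounts, FPKM minimums, folds, scalings, row sets and sources of the control 6 hpf values.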

Additional observations from a re-analysis of the deposited data

How the results depend on the processing

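The counts of genes at least 2-fold higher in control B (371) and genes at least 2-fold lower in control B (248) moved with the weight of low values and with the fold limit: they were 804 and 499 with a pseudocount of 0.1, 131 and 75 with a pseudocount of 5. At an FPKM minimum of 5 the lower count was 163 and the higher count 275. With a limit of 1.5-fold the counts were 1404 and 1238, of which 53.1% were higher, and with 4-fold they were 54 and 40. The share of differing genes that are higher in control B was 71.4% under equal summed FPKM (483 and 193 genes) and 67.5% after centring on the median gene (429 and 207). Both counts stayed within 1.5 times and the share moved little with centring on ribosomal protein genes, with symbols on 1 row and without small RNAs. The same held with the control 6 hpf values of either other comparison. Dropping the FPKM minimum could not change the counts. With a pseudocount of 1, a row under FPKM 1 in both controls cannot reach 2-fold. The sign of the list median changed in 7 of 38 lists under equal summed FPKM, 5 after median centring, 3 at the FPKM minimum of 5 and 1 with the pseudocount of 0.1 or ribosomal centring. Of 157 named genes none changed direction, and up to 28 crossed the 2-fold limit (pseudocount 5). A pseudocount cannot change a direction. Named genes were picked by the size of their difference, and scaling moved the median of all genes by 0.10 or less. The lack of reversals was therefore largely set by that choice. No paired analysis was possible because the table gives 1 value per group and no replicate numbers, so no replicate could be left out either. Embryo pool, library and sequencing run cannot be told apart from the experiment each control belongs to.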
